A study of Mus musculus with 12 samples.

Results

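The mRNAs of factors that shorten poly(A) tails and degrade messenger RNA were examined in mouse liver over the light:dark cycle. The set was a list of 41 gene symbols, taken by name from the 20069 genes of the deposited RNA-Seq table, and 40 of them were found there. *Pan2* was not found under this symbol, although *Usp52*, its older name in RefSeq, was. Of the 40 genes, 37 had at least 1 value above the expression minimum of 8 reads per base pair (rpbp, the mean coverage of a gene's exons per 40000000 uniquely mapped sequences), as did 10198 genes of the whole table.

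Livers came from wild-type male C57BL/6 mice, 3 to 6 months old, that had been kept for at least 2 weeks in a cycle of 12 hr of light and 12 hr of darkness. All samples share this genotype and schedule, and the mice were anaesthetised with isoflurane before the liver was taken. Livers were removed every 4 hr from ZT2 to ZT22 (Zeitgeber time in hr, with lights on at ZT0), and mRNA was sequenced in 2 series of 6 samples, so that each time point has 2 samples. The labels do not say whether a sample is from 1 animal, and p-values measure the spread between these 12 samples. The question put to these values was whether the mRNAs of decay factors themselves change over the day, and RNA synthesis was not measured in these samples.

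Most eukaryotic mRNAs are degraded after their poly(A) tail has been removed by deadenylases, among which the CCR4-NOT complex does the bulk of the work in the cytoplasm. The deadenylated mRNA is then either decapped and digested from its 5′ end by *Xrn1*, or digested from its 3′ end by the exosome, a ring of subunits with attached nucleases. Adaptors of the TOB and BTG family and proteins that bind AU-rich elements bring deadenylases to mRNAs, and cytoplasmic poly(A)-binding proteins coat the tail.

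Both samples at ZT2 stood apart in some markers of liver cell types. *Alb*, the albumin mRNA of hepatocytes, was at 50445 and 53126 rpbp at ZT2 and between 93174 and 122523 rpbp in the other 10 samples. *Alb* made up most of the summed level of 5 hepatocyte markers, which was 82050 and 84990 rpbp at ZT2 and between 122100 and 155500 rpbp elsewhere. The rest of that sum, from *Apoa1*, *Ttr*, *Serpina1a* and *Tat* together, lay at ZT2 within the range of the other samples. The summed level of 5 Kupffer cell markers, 4 of them above the minimum, was 490.8 and 491 rpbp at ZT2 and between 226 and 396 rpbp elsewhere. The summed level of 4 erythroid markers ran from 295 to 857 rpbp and parted most at ZT10, with 347 and 857 rpbp in the 2 samples. That of 5 endothelial cell markers was between 166 and 200.5 rpbp in all 12 samples, that of 5 stellate cell markers between 186 and 242 rpbp, and none of 5 lymphocyte markers passed the minimum, *Cd3g* being at 0 in some samples. That of 5 neutrophil markers was 17.4 and 21.5 rpbp at ZT2 and between 2.52 and 22 rpbp elsewhere, with *Ngp*, *Camp* and *Ltf* at 0 in some samples. In whole liver, fewer cells of a type and less of a marker's own mRNA per cell cannot be told apart from the level of that marker. Calls of the members that are lost without the ZT2 samples are given with and without them, and otherwise the part of these markers in the levels was not tested.

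The levels of the decay factors covered a wide range. Means over the 12 samples exceeded 100 rpbp for 4 genes (*Zfp36l1*, *Tob1*, *Zfp36* and *Pabpc1*), lay between 10 and 100 rpbp for 25 and were below 10 rpbp for 11. The level of *Pabpc1* is uncertain, since the gene has processed copies and only sequences with a unique place were kept. In 18 of the 40 genes the highest of the 12 values was less than 1.5 times the lowest, and in 8 it was 2 times the lowest or more. The median SD between the samples of a time point was 13.01% of the mean for the 37 tested members and 10.8% for all 10198 expressed genes.

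**Figure D1:**
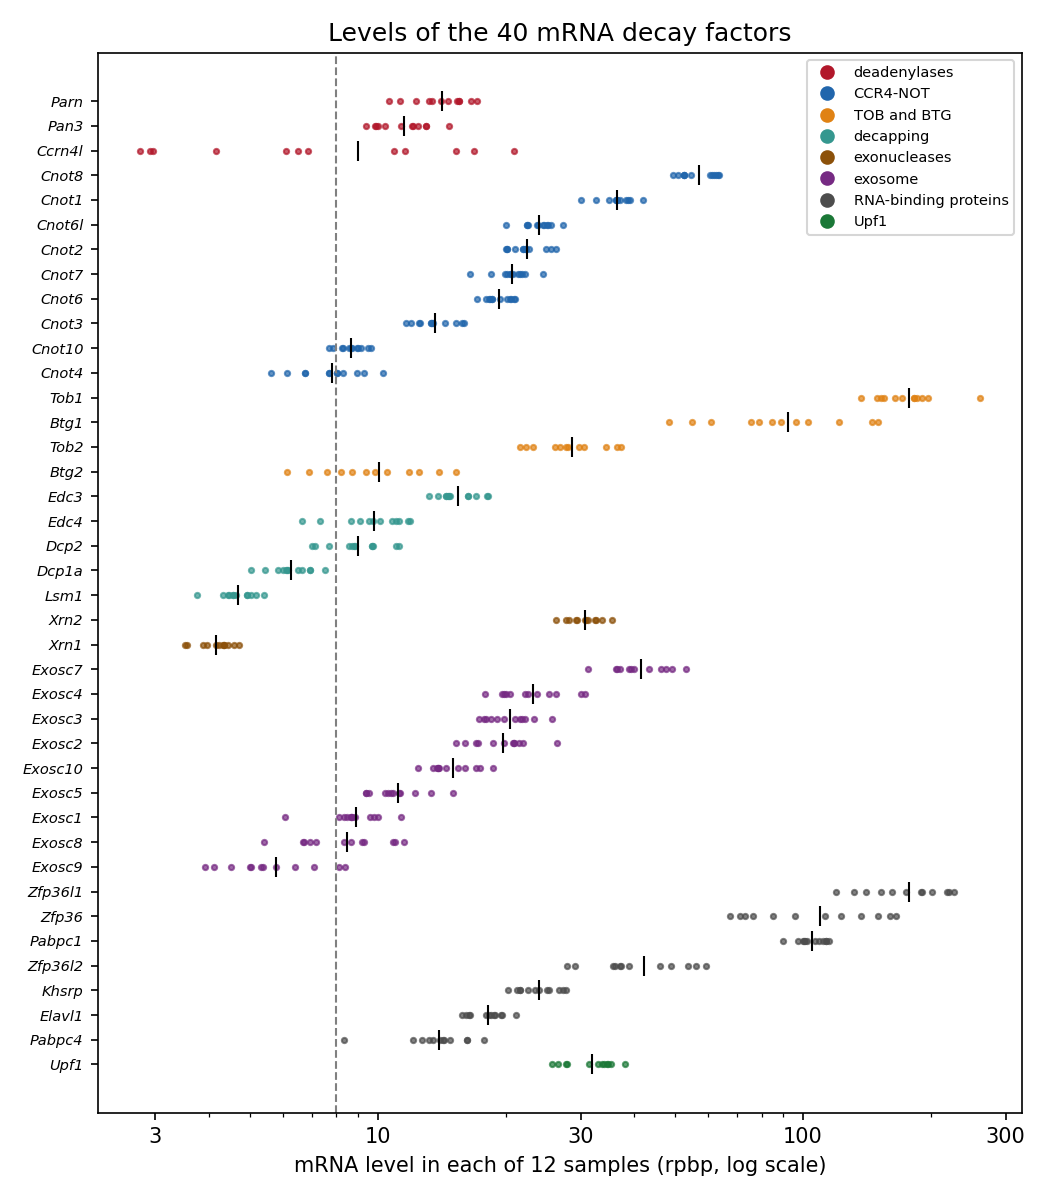
mRNA level of the 40 decay factors in each of the 12 samples (points; rpbp, log scale), coloured by role, with the mean as a black bar and the minimum of 8 rpbp as a dashed line. Most genes of the CCR4-NOT complex keep within a narrow band, while *Ccrn4l* runs from 2.76 to 20.9 rpbp.

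Rhythms were assessed by F24, the share of the variance of the 12 values that lies in a 24 hr component, with a p from 10000 permutations of the values. The criteria for a rhythmic gene were an F24 over 0.45, a permutation p under 0.05, and a highest value over 1.5 times the lowest, a ratio termed the amplitude. By these criteria 8 of the 37 tested members (21.6%) were rhythmic, beside 19.1% of all expressed genes. They were *Ccrn4l*, *Parn*, *Tob2*, *Btg1*, *Btg2*, *Exosc7*, *Exosc8* and *Zfp36l1*. Stricter criteria, with an F24 over 0.6 and a higher minimum for the amplitude, kept *Ccrn4l*, *Btg1*, *Btg2* and *Exosc8*, that is 10.8% of members and 7.89% of all expressed genes. Of the tested members, 28 had all values above 8 rpbp, and 9 passed the minimum through some of their values, among them *Ccrn4l* with 5 of 12, *Btg2* with 9 and *Exosc8* with 7. Leaving out 1 sample at a time also added rhythmic calls, of *Pan3* without ZT6 of series 1 or ZT10 of series 2, of *Exosc5* without ZT10 of series 2, of *Exosc9* without ZT6 or ZT18 of series 2, and of *Pabpc4* and *Zfp36* without ZT18 of series 2.

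Calls that allow for the number of genes tested were fewer. After Benjamini-Hochberg adjustment of the permutation p over the 10198 genes, *Ccrn4l* alone stayed below 0.05 (2.7% of members, 5.62% of all expressed genes), while unadjusted 9 members did, the 8 and *Upf1* (24.3% of members, 26.6% of all expressed genes). A limma fit of a 24 hr cosine called *Ccrn4l*, *Parn* and *Btg2* at an adjusted p below 0.05 (8.11% of members, 8.61% of all expressed genes). The limma F-test of any difference between time points called *Ccrn4l*, *Zfp36l1* and *Btg1* (8.11% of members, 17.6% of all expressed genes), and 8 members had an unadjusted p below 0.05 (21.6% of members, 37.2% of all expressed genes). Without both ZT2 samples it called 0 of the 37 members, with 4 at an unadjusted p below 0.05, and 4.6% of all expressed genes. The median F24 was 0.262 in the members and 0.31 in all expressed genes, and the median amplitude was 1.61 and 1.63.

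**Figure D2:**
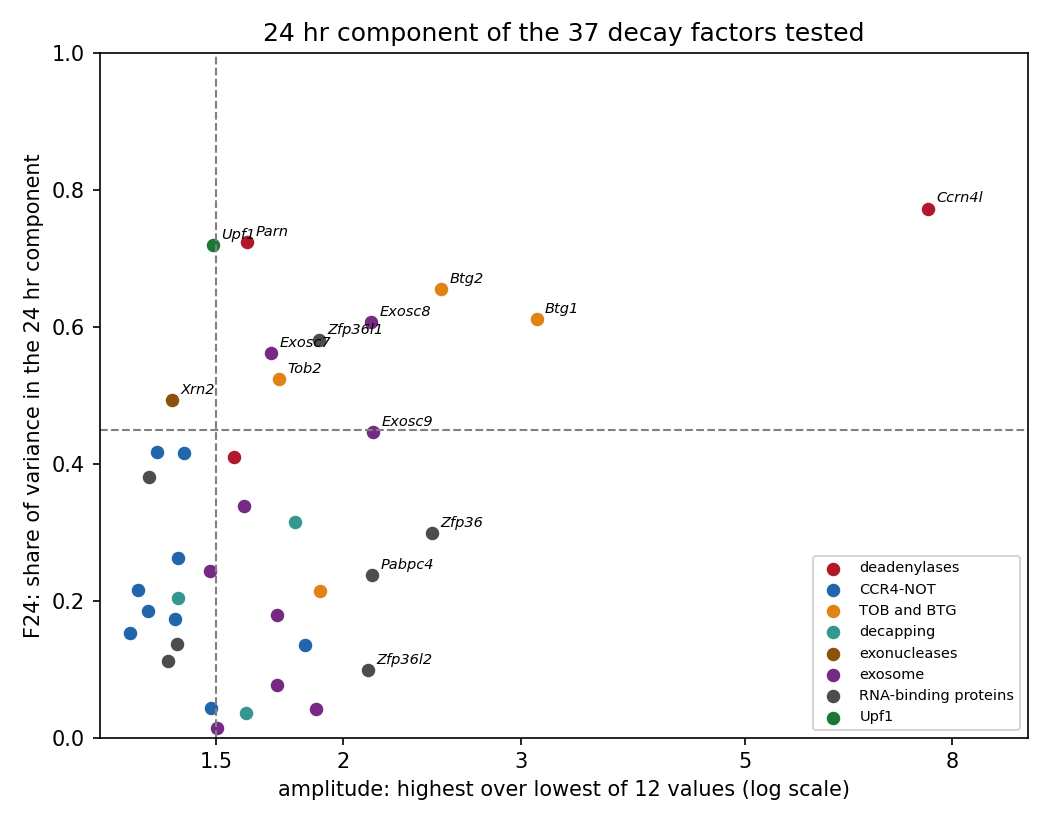
F24 (vertical axis, 0 to 1) against amplitude, the highest over the lowest of 12 values (horizontal axis, log scale), for the 37 decay factors above the minimum, coloured by role. Dashed lines mark an F24 of 0.45 and an amplitude of 1.5; *Ccrn4l* lies far to the right at 7.58, and *Upf1* lies just left of the amplitude line at 1.49.

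Among the deadenylases, *Ccrn4l* had the largest amplitude of all members. *Ccrn4l* (now *Noct*; mm9 chromosome 3, 51028369 to 51055566, plus strand) encodes Nocturnin, a protein of the CCR4 nuclease family that was first described as a deadenylase and later as a phosphatase of NADPH. In series 1 and series 2 its mRNA level was 2.76 and 2.96 rpbp at ZT2, 6.48 and 10.9 rpbp at ZT6, 16.9 and 20.9 rpbp at ZT10, 15.3 and 11.6 rpbp at ZT14, 6.84 and 2.92 rpbp at ZT18, and 4.16 and 6.08 rpbp at ZT22. All 4 samples of ZT10 and ZT14 lay above the 8 others, the nearest being 10.9 rpbp at ZT6. The time-point mean was 18.9 ± 2.86 rpbp (SD, n = 2) at ZT10 and 2.86 ± 0.141 rpbp at ZT2, a 6.61-fold difference between the highest and the lowest mean. Only the samples of ZT10 and ZT14 and series 2 at ZT6 were above 8 rpbp. *Ccrn4l* was thus tested through the times where it was highest, and the lowest mean lies under the minimum. With no minimum on expression its adjusted permutation p was 0.047.

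The 24 hr component held 0.773 of the variance of *Ccrn4l* and peaked at ZT11.04 (permutation p = 0.0015, adjusted p = 0.0362). Its peak was at ZT12.1 in series 1 alone and at ZT10.1 in series 2 alone. The limma F-test gave an adjusted p of 0.0117. *Ccrn4l* stayed rhythmic by the F24 criteria when any 1 of the 12 samples was left out, and its adjusted permutation p then lay between 0.0376 and 0.0814, staying below 0.05 only without ZT6 or ZT14 of series 1 or ZT14 of series 2. With all samples on the log2(rpbp + 1) and log2(rpbp + 0.1) scales it was 0.0532 and 0.0594. Without both ZT2 samples it met the F24 criteria (F24 0.719, permutation p = 0.0188), but the calls at an adjusted p were lost, with 0.146 in the permutation test and 0.0651 in the limma F-test.

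*Parn* (chromosome 16, 13538057 to 13668263, minus strand), the poly(A)-specific ribonuclease that also trims small noncoding RNAs, changed much less and with another phase. Its mRNA level in the 2 series was 15.6 and 15.4 rpbp at ZT2, 17.1 and 15.5 rpbp at ZT6, 14.1 and 14.6 rpbp at ZT10, 13.2 and 12.3 rpbp at ZT14, 11.3 and 10.6 rpbp at ZT18, and 13.4 and 16.6 rpbp at ZT22. Both samples of ZT18 were the lowest of the 12, and the highest single values were at ZT6 and ZT22. F24 was 0.724 with a peak at ZT4.35 and an amplitude of 1.61 (permutation p = 0.0047, adjusted p = 0.0625), and the limma F-test gave an adjusted p of 0.0555. *Parn* was called in each of the 12 sets with 1 sample left out, but not when the amplitude was taken from the time-point means, which was 1.49. Without ZT22 of series 2 its F24 was 0.914 and its adjusted permutation p 0.0176. The limma F-test called *Parn* with a minimum of 16 rpbp, and without ZT22 of either series, which leaves 1 sample at that time.

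The remaining deadenylase member, *Pan3*, the subunit that brings the nuclease PAN2 to poly(A)-binding protein, had values from 9.4 to 14.7 rpbp and an F24 of 0.41 (permutation p = 0.0951). *Usp52*, which is not on the list, had values from 6.84 to 10.4 rpbp with a median of 9.08 and an F24 of 0.0916 (permutation p = 0.642).

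None of the 9 members of the CCR4-NOT complex tested was called by the F24 criteria (19.1% of all expressed genes). An unadjusted p below 0.05 was reached by 0 of 9 in the permutation test (26.6% of all expressed genes) and by 0 of 9 in the limma F-test (37.2%). Leaving samples out gave 2 calls, an adjusted permutation p below 0.05 for *Cnot1* without ZT6 of series 1, and a rhythmic call for *Cnot4* with series 2 alone. Their median F24 was 0.186, and their median amplitude was 1.36. *Cnot8* and *Cnot7*, the paralogous CAF1 nucleases, had means of 57.1 ± 5.4 and 20.7 ± 1.96 rpbp (SD, n = 12), and *Cnot6l* and *Cnot6*, the CCR4 nucleases, had 23.9 ± 1.89 and 19.3 ± 1.31 rpbp. The highest value exceeded the lowest 1.28-fold in *Cnot8*, 1.48-fold in *Cnot7*, 1.36-fold in *Cnot6l* and 1.23-fold in *Cnot6*.

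The scaffold *Cnot1* (36.6 ± 3.1 rpbp) ran from 30.2 to 42.1 rpbp. *Cnot2*, a subunit of the NOT module, had the highest F24 of the complex, 0.417, with values between 20.0 and 26.2 rpbp and a permutation p of 0.101. *Cnot3*, its partner, had a mean of 13.7 ± 1.43 rpbp, of which the share of *Leng1* cannot be told, since 23.3% of the exon bases of *Cnot3* overlap this gene on the other strand and strand was not used. *Cnot10* and *Cnot4*, the latter a ubiquitin ligase of the complex, were near the minimum with means of 8.67 and 7.79 rpbp, and *Cnot4* varied most within time points (SD 20.2% of the mean).

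The TOB and BTG adaptors, antiproliferative proteins that bind the CAF1 nucleases, are 4 genes of the list, and 3 of them (*Tob2*, *Btg1* and *Btg2*) were called rhythmic, beside 19.1% of all expressed genes. *Btg1* (chromosome 10, 96079635 to 96085447, plus strand) was at 60.7 and 48.4 rpbp at ZT2, 75.6 and 78.9 rpbp at ZT6, 54.8 and 84.7 rpbp at ZT10, 96.4 and 89 rpbp at ZT14, 121.9 and 146 rpbp at ZT18, and 151 and 103 rpbp at ZT22 in series 1 and 2. All 4 samples of ZT18 and ZT22 lay above the 8 others. F24 was 0.611 with a peak at ZT18.6 and an amplitude of 3.11 (permutation p = 0.0132, adjusted p = 0.0979), and the limma F-test gave an adjusted p of 0.0274. The F24 call held in each of the 12 sets with 1 sample left out and without both ZT2 samples. The limma call was lost without either sample of ZT2, ZT6 or ZT14 or without series 2 at ZT18, and its adjusted p lay between 0.0177 and 0.118 over 18 alternatives, the highest without both ZT2 samples.

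*Btg2* (chromosome 1, 135971747 to 135975697, minus strand), which also responds fast to p53 and growth signals, peaked earlier and at a lower level. Its values were 7.6 and 6.88 rpbp at ZT2, 8.72 and 12.5 rpbp at ZT6, 10.5 and 13.96 rpbp at ZT10, 11.8 and 15.3 rpbp at ZT14, 8.2 and 9.88 rpbp at ZT18, and 6.12 and 9.4 rpbp at ZT22. Series 2 was higher than series 1 at 5 of the 6 time points, and in each series the highest value was at ZT14. F24 was 0.656 with a peak at ZT11.7, in series 1 alone at ZT11.7 and in series 2 alone at ZT11.8 (permutation p = 0.0089, adjusted p = 0.0816; limma F-test, adjusted p = 0.115). The F24 call held in each of the 12 sets with 1 sample left out, while the rhythmic call and the stricter call were both lost without both ZT2 samples (F24 0.566, permutation p = 0.0624).

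*Tob2* had its highest values at ZT10 in both series, 37.4 and 36.5 rpbp, and its lowest in series 2 at ZT22, 21.6 rpbp. The other pairs were 26.9 and 23.2 rpbp at ZT2, 29.7 and 30.6 rpbp at ZT6, 34.4 and 22.4 rpbp at ZT14, 28.0 and 26.1 rpbp at ZT18, and 27.8 rpbp for series 1 at ZT22. Its call was the weakest of the 8 (F24 0.523, peak at ZT10.0, permutation p = 0.0436, adjusted p = 0.176), and it held in only 2 of the 12 sets with 1 sample left out, those without series 1 at ZT22 and without series 2 at ZT14. Without series 2 at ZT14 its F24 was 0.855 and its adjusted permutation p 0.0189. Without both ZT2 samples the call of *Tob2* was lost too (F24 0.495, permutation p = 0.0998). *Tob1* was among the most abundant members (177.5 ± 32.0 rpbp, SD, n = 12) and ran from 137 to 261 rpbp without a 24 hr pattern that passed the test (F24 0.214, permutation p = 0.351).

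The peaks of *Btg1* and *Btg2* lay 6.86 hr apart. The mean log2 ratio of *Btg1* to *Btg2*, on the log2(rpbp + 1) scale, was 2.75 at ZT2, 2.77 at ZT6, 2.40 at ZT10, 2.69 at ZT14, 3.75 at ZT18 and 3.87 at ZT22. The ratio was thus highest at the last 2 time points of the night. The 24 hr component held 0.664 of the variance of this ratio. This is 1 of 8 paralog pairs whose ratio was computed, and in the 7 others that share ran from 0.0537 (*Cnot7* to *Cnot8*) to 0.626 (*Zfp36* to *Zfp36l1*). The pair was picked out after its values had been seen, and the ratio is given as a description.

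**Figure D3:**
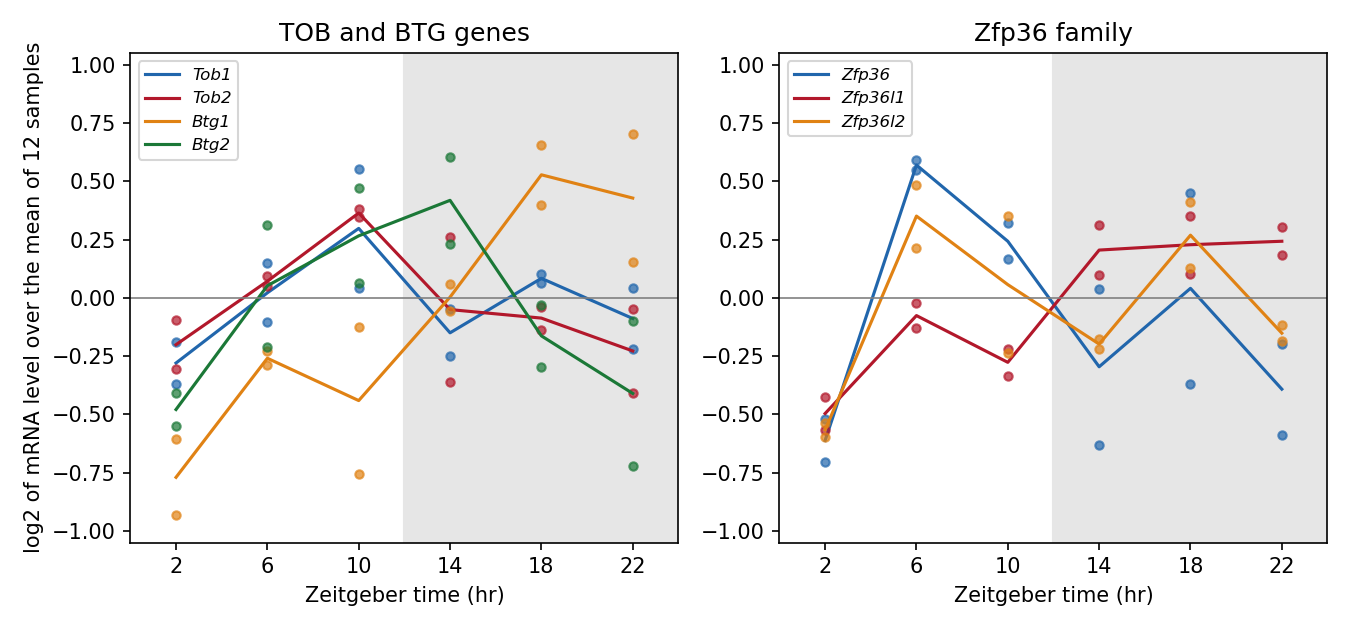
log2 of the mRNA level over the gene's mean of 12 samples (vertical axis) by Zeitgeber time (horizontal axis, hr; night shaded) for the TOB and BTG genes (left) and the *Zfp36* family (right). Points are samples and lines join time-point means; *Btg1* is highest at ZT18 and ZT22, *Btg2* at ZT14, and all 3 *Zfp36* family genes have their lowest mean at ZT2.

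The 250 bases before the RefSeq start were read for the deadenylases and BTG genes called rhythmic, to set the sequence beside the 2 pairs of differing phase. The windows come from the RefSeq promoter table (assembly GRCm38.p6), each was found at a single place on its chromosome in mm9, and they are printed 5′ to 3′ on the strand of the gene with motif matches in capitals.
*Ccrn4l* (chr3:51028119-51028368, plus strand): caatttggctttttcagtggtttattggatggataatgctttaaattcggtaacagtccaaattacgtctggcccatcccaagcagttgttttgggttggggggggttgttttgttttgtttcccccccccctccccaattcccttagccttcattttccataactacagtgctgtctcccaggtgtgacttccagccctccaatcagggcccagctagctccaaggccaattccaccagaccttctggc
*Parn* (chr16:13668264-13668513, minus strand): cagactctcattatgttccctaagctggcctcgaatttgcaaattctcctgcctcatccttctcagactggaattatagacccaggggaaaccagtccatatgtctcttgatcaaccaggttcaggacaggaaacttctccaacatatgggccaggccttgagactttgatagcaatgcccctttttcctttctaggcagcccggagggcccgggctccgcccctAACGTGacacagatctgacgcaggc
*Btg1* (chr10:96079385-96079634, plus strand): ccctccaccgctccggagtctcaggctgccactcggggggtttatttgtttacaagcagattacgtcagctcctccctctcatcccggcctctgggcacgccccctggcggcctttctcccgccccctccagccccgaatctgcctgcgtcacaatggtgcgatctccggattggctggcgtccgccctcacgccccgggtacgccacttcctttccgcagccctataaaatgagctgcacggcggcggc
*Btg2* (chr1:135975733-135975982, minus strand): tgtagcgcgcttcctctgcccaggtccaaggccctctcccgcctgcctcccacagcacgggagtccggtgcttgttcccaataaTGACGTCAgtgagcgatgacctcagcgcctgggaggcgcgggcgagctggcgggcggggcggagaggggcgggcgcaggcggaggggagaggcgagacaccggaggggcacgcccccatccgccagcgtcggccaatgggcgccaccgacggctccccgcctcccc

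The motifs searched on both strands were the E-box CACGTG, the E′-box CACGTT, the D-box TTANGTAA, the cAMP response element (CRE) TGACGTCA and the ROR response element. No window held more than 1 match. *Parn* holds an E′-box 25 to 20 bases before the start, printed as its reverse complement, and *Btg2* holds a CRE 166 to 159 bases before the start. None of the 5 motifs is in the *Ccrn4l* and *Btg1* windows, nor in those of *Tob2*, *Exosc7*, *Exosc8* and *Zfp36l1*. Among 40 windows of 33 listed genes, 2 held an E-box (*Cnot4* and *Exosc5*), 2 an E′-box (*Parn* and *Cnot6l*) and 1 a CRE, and none held a D-box or ROR element. In all 32851 promoters the shares were 6.02% for the E-box, 3.85% for the E′-box, 2.06% for the D-box, 1.55% for the CRE and 0.177% for the ROR element. A match describes the letters of the window and is not a binding site.

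The F24 criteria (19.1% of all expressed genes) and the limma F-test (17.6%) called 0 of the 3 decapping factors and 0 of the 1 exonuclease tested. None of these 4 genes had an unadjusted p below 0.05 in either test, as 26.6% and 37.2% of all expressed genes had. *Dcp2*, the decapping enzyme, had a mean of 9.01 ± 1.36 rpbp (SD, n = 12) and an F24 of 0.0356. *Edc4*, its scaffold, had the highest F24 of the 3 tested, 0.314 (permutation p = 0.195), with values between 6.64 and 11.9 rpbp. *Edc3*, an enhancer of decapping, ran from 13.2 to 18.2 rpbp.

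*Dcp1a*, the activator of *Dcp2*, *Lsm1*, of the ring that binds shortened tails, and *Xrn1*, the cytoplasmic exonuclease, had no value above 8 rpbp and were not tested, with highest values of 7.52, 5.4 and 4.72 rpbp and F24 values of 0.383, 0.674 and 0.356. *Xrn2*, the nuclear exonuclease of transcription termination, was at 30.7 ± 2.7 rpbp. Its F24 was 0.493, but its amplitude was 1.36 and its permutation p 0.0509. With no minimum on expression, 8 of all 40 members were called, beside 16.9% of 14892 genes, and *Dcp1a*, *Lsm1* and *Xrn1* were not among the 8.

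Of the 9 exosome subunits, *Exosc7* and *Exosc8*, both of the ring, were called rhythmic (22.2%, beside 19.1% of all expressed genes), and both peaked in the light phase, before ZT6. *Exosc7* (chromosome 9, 123022333 to 123045247, plus strand) was at 43.4 and 46.3 rpbp at ZT2, 47.7 and 49.2 rpbp at ZT6, 36.6 and 53.1 rpbp at ZT10, 39.4 and 31.2 rpbp at ZT14, 36.4 and 37.2 rpbp at ZT18, and 39.1 and 40.04 rpbp at ZT22. The 2 series differed most at ZT10, where they held the highest value of the 12 and one of the lower ones. F24 was 0.562 with a peak at ZT5.27 and an amplitude of 1.7 (permutation p = 0.028, adjusted p = 0.143). The call was lost without ZT6 of either series (F24 0.518 and 0.496) or without ZT14 of series 2 (F24 0.56). Without both ZT2 samples F24 was 0.552 and the permutation p 0.0747.

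*Exosc8* (chromosome 3, 54532600 to 54539315, minus strand) had lower values, 9.2 and 11.5 rpbp at ZT2, 10.8 and 9.28 rpbp at ZT6, 8.32 and 10.96 rpbp at ZT10, 7.16 and 6.68 rpbp at ZT14, 5.4 and 8.64 rpbp at ZT18, and 6.92 and 6.72 rpbp at ZT22. The 6 samples of ZT2 to ZT10 and those of ZT14 to ZT22 overlapped only through the 8.64 rpbp of series 2 at ZT18. F24 was 0.606 with a peak at ZT5.67 and an amplitude of 2.13 (permutation p = 0.0212, adjusted p = 0.123), and the call was lost without ZT18 of series 1. For *Exosc7* and *Exosc8* the limma F-test gave adjusted p of 0.269 and 0.144.

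*Exosc9*, a further ring subunit, fell just short of the F24 minimum (0.446, permutation p = 0.074) at a mean of 5.75 rpbp, with both ZT2 values, 8.4 and 8.12 rpbp, above the 10 others. These 2 were also its only values above 8 rpbp, so that it was tested only through the time point where it was highest, and without them its adjusted limma p was 0.924 (0.224 with all samples). It shares 10.9% of its exon bases with *Ccna2* on the other strand. The cap subunits *Exosc1*, *Exosc2* and *Exosc3*, the ring subunits *Exosc4* and *Exosc5*, and *Exosc10*, the nuclear nuclease, had F24 values between 0.0139 (*Exosc10*) and 0.338 (*Exosc5*), with means from 8.88 to 23.2 rpbp. Their SD between samples of a time point was 10.3% to 19.4% of the mean. *Exosc4* shares 19.8% of its exon bases with *Oplah* on the other strand.

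**Figure D4:**
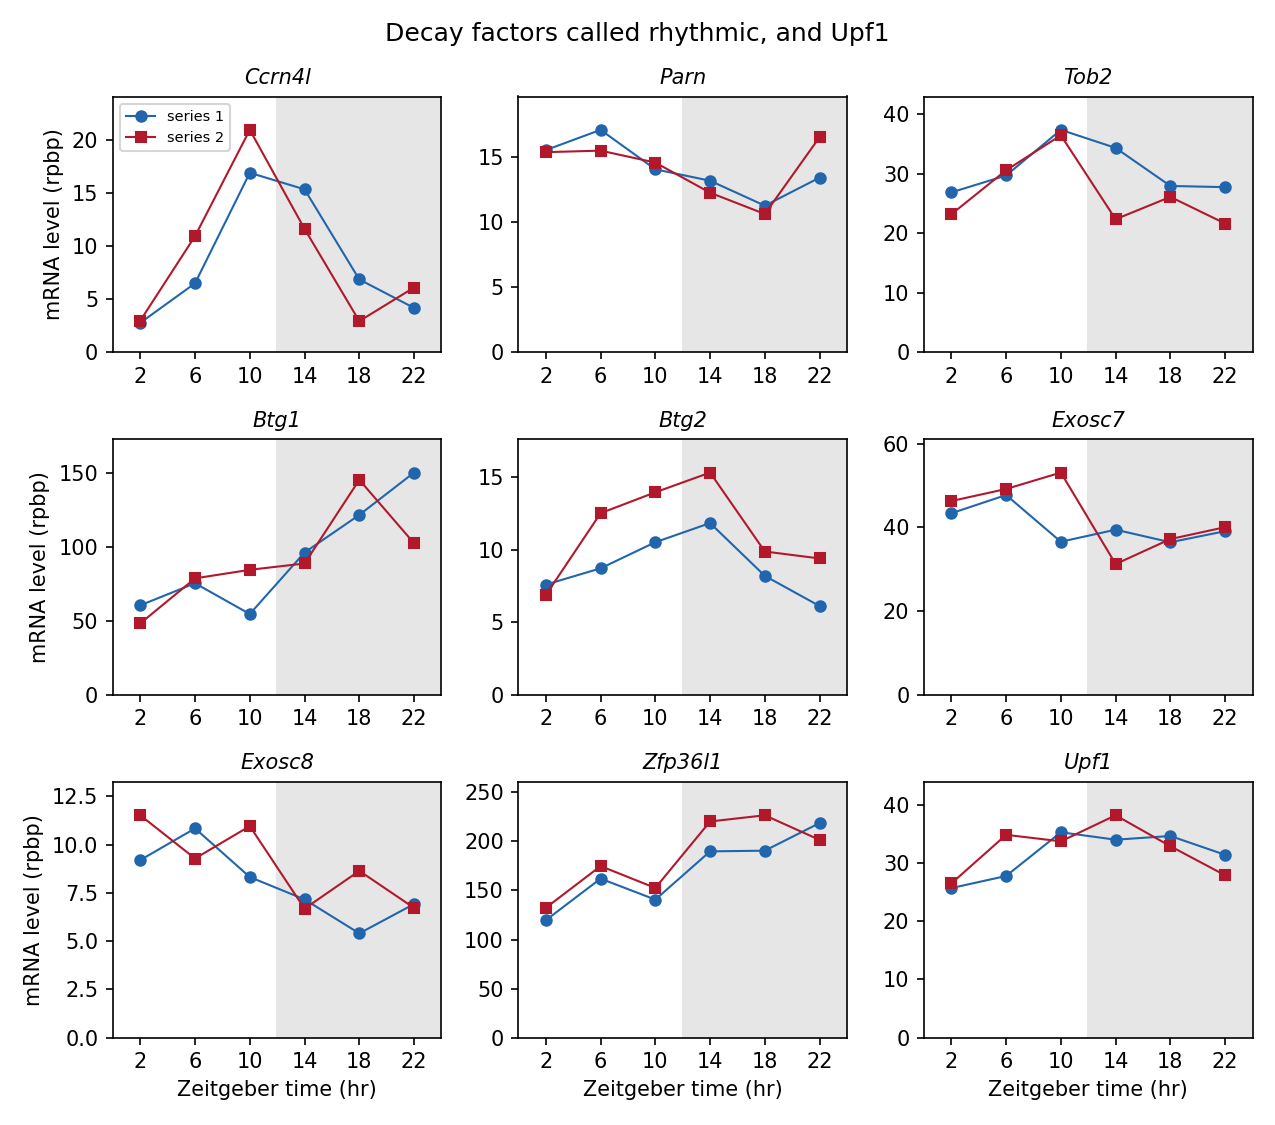
mRNA level (rpbp, vertical axes from 0) by Zeitgeber time (hr; night shaded) in series 1 (circles) and series 2 (squares) for the 8 members called rhythmic and for *Upf1*. *Ccrn4l* has a mean of 18.9 rpbp at ZT10 and of 2.86 rpbp at ZT2, *Btg1* and *Zfp36l1* are highest at night, and *Parn*, *Exosc7* and *Exosc8* are lower at ZT14 and ZT18 than at ZT2 and ZT6 in every sample.

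Among the 7 proteins that bind AU-rich elements or poly(A), *Zfp36l1* was called by the F24 criteria and the limma F-test (14.3% for either, beside 19.1% and 17.6% of all expressed genes). *Zfp36l1*, like *Zfp36* (tristetraprolin) and *Zfp36l2*, binds AU-rich elements and recruits CCR4-NOT to the mRNA. Its level was 119.7 and 132 rpbp at ZT2, 162 and 175 rpbp at ZT6, 141 and 153 rpbp at ZT10, 189.9 and 220.4 rpbp at ZT14, 191 and 227 rpbp at ZT18, and 219 and 202 rpbp at ZT22. All 6 samples of the night lay above all 6 of the day, and both samples of ZT2 were the lowest.

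F24 of *Zfp36l1* was 0.581 with a peak at ZT17.5 and an amplitude of 1.89 (permutation p = 0.0284, adjusted p = 0.144), and the limma F-test gave an adjusted p of 0.0153. The F24 call was lost only without ZT18 of series 2 among the sets with 1 sample left out. The limma call of *Zfp36l1* was lost without either of the ZT2 samples, and without both the adjusted p was 0.112. By the F24 criteria *Zfp36l1* was still called without both ZT2 samples. Of the exon bases of *Zfp36l1* (chromosome 12, 81208747 to 81214000, minus strand), 56% overlap the noncoding RNA *Gm17591* on the other strand, so the signal of the 2 genes cannot be told apart.

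*Zfp36* and *Zfp36l2* are described because of their values, which were seen first. *Zfp36* was at 76.6 and 67.5 rpbp at ZT2, 165 and 161 rpbp at ZT6, 123 and 137 rpbp at ZT10, 71.0 and 113 rpbp at ZT14, 85.1 and 150 rpbp at ZT18, and 73.1 and 95.9 rpbp at ZT22. Both samples of ZT6 lay above the 10 others, and the series parted at ZT14 and ZT18. The F24 was 0.299 (permutation p = 0.201), and the limma F-test gave an adjusted p of 0.084 with an unadjusted p of 0.0224. *Zfp36* was called by the F24 criteria without ZT18 of series 2, and by the limma F-test without ZT18 of either series.

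*Zfp36l2* was lowest in both ZT2 samples (29.1 and 27.9 rpbp) and had its highest values at ZT6 of series 1 (59.1 rpbp) and ZT18 of series 2 (56.1 rpbp). Its remaining values were 49.0 rpbp at ZT6 of series 2 and 46.1 rpbp at ZT18 of series 1, 35.8 and 53.8 rpbp at ZT10, 36.2 and 37.3 rpbp at ZT14, and 38.9 and 37.1 rpbp at ZT22. It had little in a 24 hr component (F24 0.0986), and its adjusted limma p, 0.0502, lay just above the threshold, below which it fell in 4 of 18 alternatives (without ZT10 of either series, with size factors and with a minimum of 16 rpbp). That p was 0.265 without both ZT2 samples.

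Genes that respond within minutes to handling or feeding, as *Zfp36* and *Btg2* also can, were listed for comparison. Of 11 such genes, 7 were tested, 1 (*Myc*) was rhythmic and 2 (*Myc* and *Junb*) differed between time points by the limma F-test, beside 19.1% and 17.6% of all expressed genes. Without both ZT2 samples the adjusted limma p was 0.0165 for *Myc* and 0.0971 for *Junb*, whose call was lost. *Junb* was at 40.5 and 49.8 rpbp at ZT6, where *Zfp36* was highest, and between 9.36 and 28.9 rpbp in the other 10 samples. *Myc* was at 13.96 and 13.2 rpbp at ZT14, where *Btg2* was highest, and at 9.16 and 14.5 rpbp at ZT10. Other genes of the list differed between the series at ZT6. *Jun* had the lowest of its 12 values at ZT6 of series 1 (7.32 rpbp) and its second highest at ZT6 of series 2 (23.8 rpbp). *Nr4a1* was at 0.96 and 4.32 rpbp, *Ier2* at 9.84 and 16.1 rpbp and *Egr1* at 9.32 and 5.52 rpbp in these 2 samples, and *Egr1* was highest at ZT2 of series 1 (42.4 rpbp). The summed level of the 11 genes was highest at ZT18, 216 and 289 rpbp, of which *Dusp1* made up 152 and 174 rpbp. The part of an acute response in the levels of the members was not tested.

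The other RNA-binding members changed little. *Elavl1* (HuR), which stabilizes mRNAs with AU-rich elements, had 18.1 ± 1.66 rpbp (SD, n = 12) and an F24 of 0.112. *Khsrp*, which promotes their decay, had 23.9 ± 2.52 rpbp and an F24 of 0.137. The poly(A)-binding proteins *Pabpc1* and *Pabpc4* had 105 ± 7.82 and 13.96 ± 2.4 rpbp, and F24 values of 0.381 and 0.237, with no call. The 2.14-fold amplitude of *Pabpc4* came with an SD between samples of a time point of 19.3% of the mean, and its highest time-point mean was 1.31 times its lowest.

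*Upf1* (chromosome 8, 72855421 to 72877172, minus strand), the RNA helicase of nonsense-mediated decay, missed the rhythmic call by its amplitude alone. Its values were 25.7 and 26.5 rpbp at ZT2, 27.8 and 34.9 rpbp at ZT6, 35.3 and 33.8 rpbp at ZT10, 34.04 and 38.2 rpbp at ZT14, 34.7 and 32.9 rpbp at ZT18, and 31.4 and 27.9 rpbp at ZT22. Both ZT2 samples were the lowest, with all 6 values from ZT10 to ZT18 between 32.9 and 38.2 rpbp. F24 was 0.719 with a peak at ZT13.4 (permutation p = 0.0048, adjusted p = 0.0632) and the amplitude was 1.49. With the samples rescaled by size factors *Upf1* was called and its adjusted p was 0.0481, and without both ZT2 samples F24 was 0.549 and p was 0.0575. Without ZT6 of series 2 its F24 was 0.873 and its adjusted permutation p 0.0385, still with no rhythmic call.

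The 8 rhythmic members did not share a phase. Their 24 hr components peaked between ZT0 and ZT6 in *Parn*, *Exosc7* and *Exosc8*, between ZT6 and ZT12 in *Ccrn4l*, *Tob2* and *Btg2*, between ZT12 and ZT18 in *Zfp36l1*, and after ZT18 in *Btg1*. Of all 1948 rhythmic genes, 28.2%, 28.9%, 17.3% and 25.6% peaked in these 4 windows.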

How the data were processed

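The 41 members and the gene lists were chosen with earlier results of these data known. Poly(A) RNA of 12 samples was sequenced. The labels name CASAVA 1.8, TopHat and mm9. The authors kept uniquely mapped sequences, merged each gene's exons over its isoforms without regard to strand, and deposited a coverage signal in reads per base pair scaled to 10000000 sequences, which was multiplied by 4 here. The signal is not a count, depth as read counts is not in the table, and no interval for counting error is given. The last columns are named ZT20 and were taken as ZT22, as in the labels. The deposited F24, phase and p (3 columns) were not used.

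F24 and phase came from Fourier analysis at 24 hr of the 12 values, with p from 10000 random orders of the values (seed 1, smallest possible p 0.0001), over genes with 1 value above 8 rpbp. The limma F-test compared 6 time points on log2(rpbp + 1), with 2 samples each. Adjusted p are Benjamini-Hochberg values over 10198 genes, for both tests. Both were tested on simulated data. Values by sample are given for *Ccrn4l* and for members called by either test, and where a role group had no call, its tested member of highest F24 is named (*Cnot2*, *Edc4*, *Xrn2* and *Upf1*). Coordinates are mm9 (GENCODE). Alternatives were a minimum of 16 rpbp or none, size factors, log2 with a pseudocount of 1 or 0.1, amplitudes of time-point means, the adjusted p, a limma cosine fit, the series as a block, and samples or series left out. The tools were limma 3.58.1 in R 4.3.3, and scipy 1.17.1, numpy 2.4.6, matplotlib 3.10.9 and pandas 2.3.3 in Python 3.11.15.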

Additional observations from a re-analysis of the deposited data

How the results depend on the processing

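Shares of all genes tested stand in brackets. The count of 8 rhythmic members (19.1%) was 5 with amplitudes from time-point means (14.5%), 5 without both ZT2 samples (15.1%; a setting chosen after seeing the data), 1 with the adjusted p (4.81%) and 3 with the limma cosine fit (8.12%). It ranged from 1 to 9 with samples or series left out, with 9 without ZT10 or ZT18 of series 2 (15.9% and 17.3%). With series 2 alone the 1 call was *Cnot4* and none of the 8 (3.62%), and with series 1 alone the 3 calls were *Parn* and *Exosc8* of the 8 and *Dcp2* (2.8%). The 4 strong calls became 2 with a minimum of 16 rpbp (8.28%), which removes *Btg2* and *Exosc8* from the genes tested, and ranged from 0 to 6 with samples or series left out (2 without ZT22 of series 1, 9.65%; 6 without ZT6 of series 2, 8.22%; 0 with series 2 alone, 2.34%). The 1 adjusted call, *Ccrn4l*, became 0 on either log2 scale (5.66% and 5.64%; 9 members at an unadjusted p below 0.05), 0 without both ZT2 samples (1.82%; 5 unadjusted), 2 with size factors (6.41%), 3 with the limma cosine fit (8.61%), and 0 to 2 with 1 sample left out (2.45% to 5.01%). With 1 sample left out, some of these calls were of other members. *Parn* without ZT22 of series 2 and *Upf1* without ZT6 of series 2 were called in place of *Ccrn4l*. *Tob2* without ZT14 of series 2 and *Cnot1* without ZT6 of series 1 were called beside it. The 3 limma calls became 5 with a minimum of 16 rpbp (24.1%), 0 without both ZT2 samples (4.6%), and 1 to 4 with 1 sample left out, the lowest without either ZT2 sample (7.1% and 7.42%). Some settings also hold fewer samples or genes, and the cause of these changes was not tested. With the series as a replicate block, counts were 8 (20.8%), 5 (8.64%), 2 (8.29%) and 4 (13.7%), and *Btg2* passed both adjusted tests (permutation p adjusted to 0.0235, limma 0.0428). Over all genes, the differences between series were little correlated between time points (from −0.153 to 0.206, 2 of 15 above 0.1). These correlations cannot exclude a difference between the series in single genes. No peak moved by over 6 hr in a called member.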

Other observations

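Other genes of mRNA decay outside the 41 were counted from a list of 60, of which 42 were tested. Of these 6 (14.3%) were rhythmic by the F24 criteria, beside 19.1% of all expressed genes. *Cpeb4* and *Cpeb3*, proteins that bind cytoplasmic polyadenylation elements, peaked at ZT20.3 and ZT9.54 with amplitudes of 3.77 and 2.15 (permutation p = 0.0145 and 0.0437). *Dcps*, the scavenger of cap remnants, peaked at ZT22.6 (permutation p = 0.0147), and *Dis3l*, a cytoplasmic nuclease of the exosome, at ZT2.58 (permutation p = 0.0064). *Zcchc11*, a terminal uridylyltransferase, peaked at ZT8.74 (permutation p = 0.0127), and *Angel2*, a relative of the CCR4 nucleases, at ZT10.9 (permutation p = 0.0471). None of the 6 had an adjusted permutation p below 0.05. *Wdr61*, a subunit of the SKI complex that feeds mRNA to the exosome, had the highest F24 of the list (0.853, peak at ZT7.4, adjusted p = 0.0167) with an amplitude of 1.44, below the minimum for a call. Its values ran from 52.0 rpbp at ZT18 of series 1 to 74.7 rpbp at ZT10 of series 2. *Upf2*, a partner of *Upf1*, was the only gene of the list called by the limma F-test (adjusted p = 0.0198; 17.6% of all expressed genes were called), with 18.8 and 19.5 rpbp at ZT2 and 12.1 to 16.2 rpbp elsewhere. Without both ZT2 samples, a setting chosen after seeing the data, the adjusted limma p of *Upf2* was 0.159, so that its call was lost. Its F24 was then 0.824 (permutation p = 0.0086), against 0.418 (0.0873) with all samples, without a rhythmic call. For *Wdr61* the adjusted permutation p was 0.0534, above the threshold, with an F24 of 0.86. *Angel2* was no longer rhythmic (permutation p = 0.125), while *Dcps*, *Dis3l*, *Cpeb3*, *Cpeb4* and *Zcchc11* stayed so. *Lsm3* became rhythmic (F24 0.68, permutation p = 0.0136), against an F24 of 0.342 (permutation p = 0.148) with all samples.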
